A study of Mus musculus with 4 samples.

Results

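Mitochondrial ribosomal proteins build the ribosome inside mitochondria, and 78 genes for them were taken from the 54532 genes counted in mouse liver. They are the protein-coding genes whose symbol is Mrpl (large subunit, 49 genes) or Mrps (small subunit, 29 genes) followed by a number and at most 1 letter. The livers came from C57BL/6 mice, a common inbred strain, and were labelled HFD (libraries 334 and 335) or HFD+I3A (libraries 303 and 305, called I3A here). HFD usually stands for a high-fat diet in mouse liver work, and the labels give I3A only by this abbreviation. Both groups received HFD, and no liver without HFD was analysed here. The series title names respiration of liver mitochondria in a model of fatty liver disease, and the members supply the machinery that translates the respiratory chain subunits encoded in mitochondrial DNA.

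The mitochondrial ribosome has its own proteins and RNAs, distinct from those of the ribosome in the cytosol. Its ribosomal RNAs are transcribed from mitochondrial DNA, whereas every one of its proteins is encoded in the nucleus, made in the cytosol and imported. The small subunit reads the messenger RNA, and the large subunit joins the amino acids and is docked to the inner membrane, where the new proteins are inserted. Some members descend from bacterial ribosomal proteins and others are found only in mitochondria. Symbols do not always give the subunit: the products of Mrps30 and Mrps18a sit in the large subunit, and that of Mrps36 is now placed in the alpha-ketoglutarate dehydrogenase complex. The counts below follow the symbols, and the assignment by structure is given where the subunits' levels by library and fold changes are compared.

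The 4 libraries held 15005668 to 18255623 counts, of which the members took 0.204% to 0.227%. Markers of hepatocytes were abundant in every library (86461 to 92896 CPM summed over 7 genes, where CPM is the count scaled to a common library size). Library HFD 335 also held transcripts of other tissues: the sum over 10 skeletal muscle genes was 868 CPM there, beside 0.639 to 0.876 CPM elsewhere, where 6 to 9 of the 10 were at 0 counts. Exocrine pancreas (174 beside 12.1 to 25.5 CPM), smooth muscle with mesothelium (204 beside 6.14 to 8.06 CPM) and adipocyte markers (75.3 beside 4.38 to 10.4 CPM) were likewise highest in HFD 335. Markers of stellate cells and endothelium were lowest in I3A 305 (50.7 and 62.8 CPM, beside 141 CPM or more elsewhere). The part of these tissues in the members' values was not tested, and values without HFD 335 are given for the list and for some of the named members. Since no label ties a library to its own animal, p-values describe how these libraries vary and may be technical. In bulk tissue, fewer cells of a type and less RNA per cell cannot be told apart.

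Promoters of the members were examined for short motifs of 3 factors known to act on nuclear genes of mitochondria. The 5 shown are Mrpl32 and those members named by rule that hold a whole NRF1 or GABPA motif in the stretch printed. They do not give the share of each motif among the members. The table of RefSeq promoters (build GRCm38.p6) held 69 of the 78 members, in 75 windows reaching from 250 bases before the start to 50 bases after it. The motifs were GCGCATGC for NRF1, the nuclear respiratory factor, CCGGAAGT for GABPA, a factor of the ETS family, and AAGATGGCG for YY1, each searched on both strands. In the sequences below the capitals mark matches to these letters, the last base lies directly before the RefSeq start, and each reads 5′ to 3′ on the gene's strand. The deposited coordinates begin at 14613165 for Mrpl32 and 31596935 for Mrpl33, so these printed stretches lie inside the deposited genes. The deposited Mrpl9 (94443318) and Mrpl17 (105811099) begin within their stretches.
Mrpl9, chr3:94443236-94443335, plus strand: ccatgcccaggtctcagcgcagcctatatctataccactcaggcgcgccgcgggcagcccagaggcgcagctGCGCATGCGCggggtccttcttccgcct
Mrpl17, chr7:105811088-105811187, minus strand: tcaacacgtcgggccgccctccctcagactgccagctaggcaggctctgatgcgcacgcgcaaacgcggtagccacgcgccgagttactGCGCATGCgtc
Mrpl32, chr13:14613038-14613137, minus strand: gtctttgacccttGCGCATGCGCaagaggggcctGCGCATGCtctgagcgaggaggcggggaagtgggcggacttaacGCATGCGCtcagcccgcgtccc
Mrpl33, chr5:31613851-31613950, plus strand: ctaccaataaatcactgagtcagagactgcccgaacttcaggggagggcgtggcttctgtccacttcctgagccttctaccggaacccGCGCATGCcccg
Mrpl43, chr19:45006443-45006557, minus strand: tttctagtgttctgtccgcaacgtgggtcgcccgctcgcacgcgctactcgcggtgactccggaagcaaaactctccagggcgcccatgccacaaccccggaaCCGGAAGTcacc

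The first 4 of these carry the NRF1 motif. In Mrpl17 it begins 11 bases before the start and in Mrpl33 12 bases before it. Mrpl32 has 4 matches, beginning 87, 85, 66 and 22 bases before the start, of which the first 2 overlap, as do the 2 matches of Mrpl9. Mrpl43 carries the GABPA motif, and its stretch is longer because it spans all 115 bases between the start of Mrpl43 and that of Twnk on the other strand.

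Over the 69 members, 8 (11.6%) held the NRF1 motif, 12 (17.4%) the GABPA motif and 8 (11.6%) the YY1 motif. By window the shares were 10.7%, 16.0% and 10.7%, beside 2.71%, 3.89% and 1.40% of all 32851 windows of the table. Counted by gene, 3.05%, 4.31% and 1.64% of all 27025 genes of the table held the 3 motifs. Among 9545 protein-coding genes with a mean of at least 10 counts a library, the shares were 5.88%, 9.06% and 3.63%. These protein-coding genes expressed in liver thus hold them more often than the table as a whole. Of the 8 YY1 matches, 6 began at or after the start, as in Mrps18a, Mrps24 and Mrps27. The 26 members with any of the motifs had a median log2 fold change between the groups of 0.0010, and the 42 tested members without one had 0.0017. By factor the medians with and without a match were 0.013 and -0.0017 for NRF1, 0.049 and -0.0096 for GABPA and -0.094 and 0.0066 for YY1, over 8, 12 and 8 members with a match. The median thus lay lower for the YY1 members and higher for the GABPA members than for the rest, differences that were not tested. Quartiles over all tested members were -0.11 and 0.11, and each of these medians lay between them. A match is a description of these letters and not a binding site.

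Transcripts of the mitochondrial ribosomal proteins were close to level between HFD and I3A livers. Of the 78 members 77 passed the filter on low counts, each with at least 74 counts in every library, and their log2 fold changes (I3A over HFD) ran from -0.36 to 0.30 with a median of 0.0074. A positive value was found for 42 members and a negative one for 35. Over all 13403 tested genes the median was -0.010. The change was smaller than 0.2 on the log2 scale in 63 of the 77 members (81.8%) and in 48.8% of all tested genes. The 95% interval of the fold change stayed within 2-fold either way in 77 of 77 members and within 1.5-fold in 69, shares of 100% and 89.6%, against 63.1% and 37.5% of all tested genes. Members were also better counted than most genes, with a median standard error of 0.125 beside 0.196 over all.

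With edgeR, 0 members and 0% of all tested genes had an adjusted p under 0.05, and the smallest adjusted p of a member was 0.362. At an unadjusted p under 0.05 stood 0 members on the higher side and 2 on the lower side, beside 6.66% and 6.24% of all tested genes, or 12.9% in all. Both were of the large subunit, Mrpl38 and Mrpl41. DESeq2, which called 2.95% of the genes it tested, called 0 members (smallest adjusted p 0.627), and limma-voom called 0 members and 0% of all genes. The groups did not overlap in 26 of the 77 members, 15 with both I3A libraries above both HFD libraries (background 23.1%) and 11 below (background 22.5%). That is 33.8% of the members, beside 45.5% of all tested genes. Regrouping 2 libraries against 2 exactly gives no p below 0.333 for any 1 gene, and edgeR reaches lower values by pooling the variance of many genes.

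**Figure D1:**
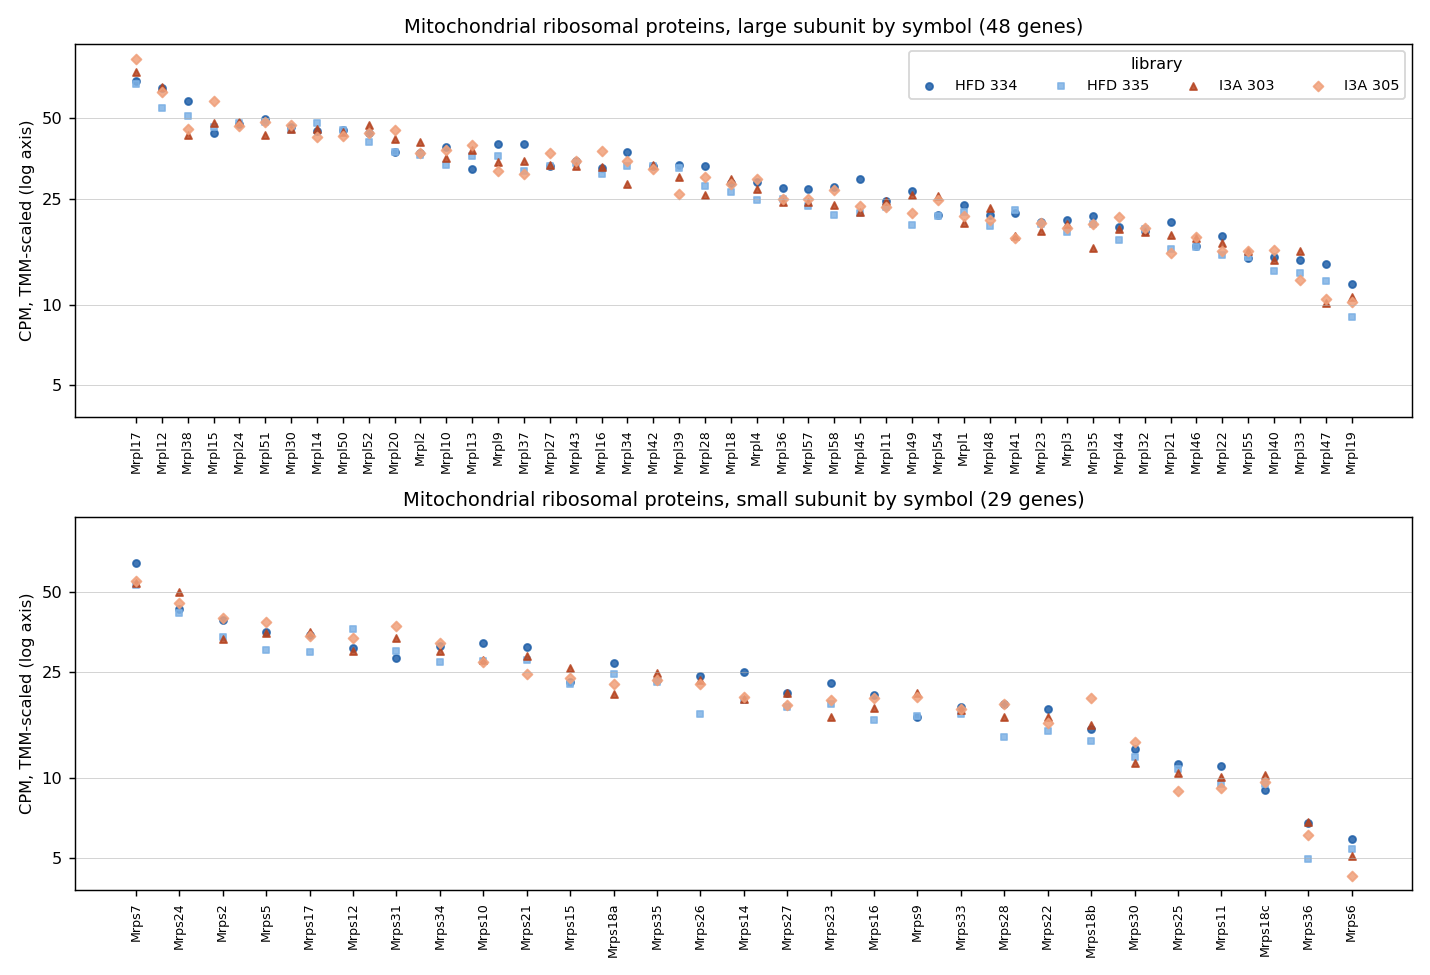
Level of each tested member in each of the 4 libraries, in TMM-scaled CPM on a log axis, with 48 genes of the large subunit above and 29 of the small subunit below, ordered by mean level. The 4 points of a gene lie close together, with the highest library at most 1.45 times the lowest (Mrps18b) and 1.21 times in the median member.

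**Figure D2:**
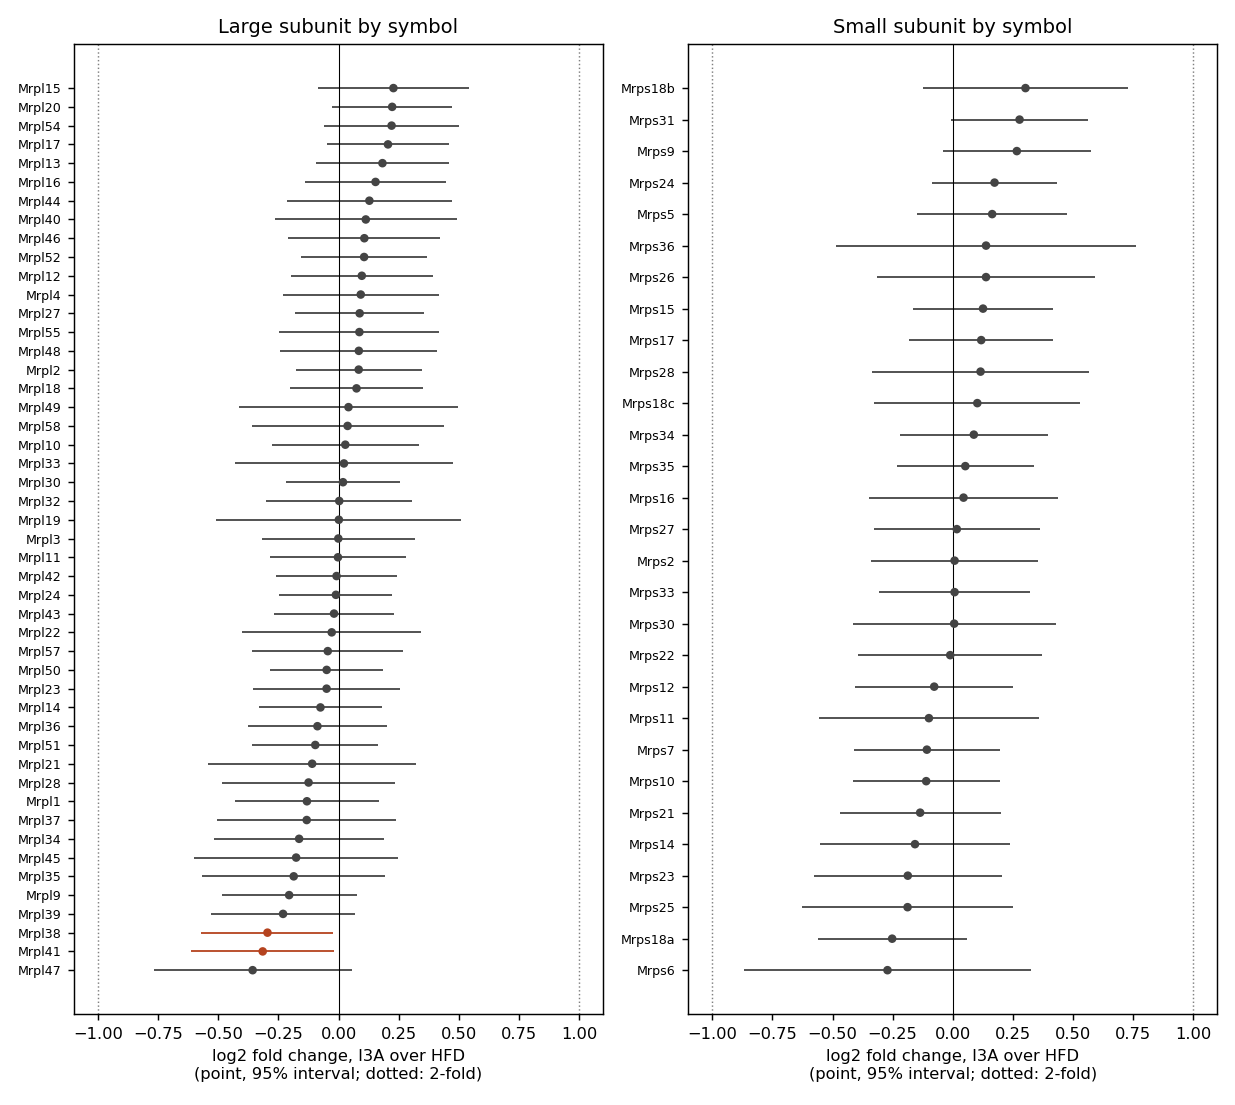
Log2 fold change of each tested member (I3A over HFD), with points for the estimate and bars for the 95% interval of edgeR's fit, and dotted lines at a 2-fold change. Mrpl38 and Mrpl41 (red) are the members with an unadjusted p under 0.05, and no interval reaches a dotted line.

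The plot of levels by library shows how little the members differed among libraries. No member was more than 1.5-fold apart between any 2 libraries on the log2 CPM scale, within or across groups, whereas 16.1% to 24.4% of all tested genes were. The widest gap lay inside the HFD group: 64 of 77 members were higher in HFD 334 than in HFD 335 and 13 were lower. HFD 335 gave the lowest of the 4 values for 38 members and HFD 334 the highest for 34. In the I3A pair the members split evenly, 37 higher in I3A 303 and 40 higher in I3A 305. The same counts were not made over all tested genes.

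Leaving out either HFD library therefore moved the list as a whole. Without HFD 335, 27 members were positive and 50 negative (median -0.056), and without HFD 334, 57 were positive and 20 negative (median 0.085). Over all genes tested in the same fits the medians were -0.0028 without HFD 335 and 0.0081 without HFD 334. At an unadjusted p under 0.05 stood only Mrpl38 without HFD 335 (background 10.1%), only Mrps26 without HFD 334 (higher, background 14.7%), only Mrpl15 without I3A 303 (higher, background 11.2%) and 0 members without I3A 305 (background 5.44%). At an adjusted p under 0.05 these 4 edgeR fits called 0.152%, 2.36%, 0.298% and 0% of all genes, and 0 members each. The sign of the fold change stayed the same in all 4 fits that leave out 1 library for 41 of the 77 members. Mrps26, at 0.14 with all libraries, stood at -0.079 without HFD 335 and at 0.40 without HFD 334.

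The subunits were compared through the mean log2 CPM of their tested members in each library. Mean levels of the 48 large-subunit genes were 4.86 and 4.75 in the HFD libraries 334 and 335 and 4.79 and 4.80 in the I3A libraries 303 and 305. For the 29 small-subunit genes the same libraries measured 4.41, 4.25, 4.35 and 4.36. HFD 334 was the highest and HFD 335 the lowest library for both subunits, with the I3A libraries between them. The I3A mean was 0.0089 below the HFD mean for the large subunit (-0.0089) and 0.021 above it for the small subunit, beside gaps between the HFD libraries of 0.118 and 0.163.

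The balance of the subunits, large minus small, was 0.450 and 0.494 in HFD and 0.438 and 0.447 in I3A livers on the same log2 scale. Both I3A libraries lay below both HFD libraries, but the groups' difference of -0.030 was smaller than the gap of 0.045 between the HFD libraries. In fitted fold changes the large subunit had a median of 0.00021 (24 positive, 24 negative) and the small subunit of 0.017 (18 positive, 11 negative). With Mrps30 and Mrps18a counted in the large subunit and Mrps36 left out, the medians were 0.00021 over 50 genes and 0.031 over 26. The balance was then 0.347 and 0.385 in HFD and 0.314 and 0.337 in I3A livers, a difference of -0.041 beside an HFD gap of 0.037.

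Among large-subunit members, 2 proteins found only in mitochondria had the smallest p. Mrpl38 (chromosome 11, 116131817 to 116138868, minus strand, build GRCm38) measured 58.0 and 51.1 CPM in the HFD libraries 334 and 335 and 43.2 and 45.7 CPM in the I3A libraries 303 and 305. Both I3A libraries were below both HFD libraries. Its level was 1.23-fold lower in I3A livers (log2 fold change -0.30 ± 0.11, SE; unadjusted p = 0.0391, edgeR adjusted p = 0.362). Mrpl38 stood at -0.19 without HFD 334 and at -0.38 without HFD 335. Mrpl41 (chromosome 2, 24974117 to 24975098, minus strand) measured 22.1 and 22.6 CPM in HFD and 18.1 and 17.8 CPM in I3A livers. Its libraries agreed closely within each group, and the difference of 1.24-fold (-0.32 ± 0.12, SE; unadjusted p = 0.0410, edgeR adjusted p = 0.366) ranged only from -0.32 to -0.30 with single libraries left out.

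The other large-subunit genes named on the lower side were Mrpl47, Mrpl39 and Mrpl9. Mrpl47, which has a bacterial counterpart, had the most negative value of all members at -0.36 ± 0.16 (SE), with 14.2 and 12.3 CPM in HFD and 10.2 and 10.5 CPM in I3A livers. Its groups did not overlap, and without HFD 335 Mrpl47 stood at -0.46. Exons of 2 genes on the opposite strand, Ndufb5 and Actl6a, cover 13.9% and 10.2% of its exonic bases, and no source says that the libraries keep strand. Mrpl39, found only in mitochondria, measured 33.4 and 32.5 CPM in HFD and 30.0 and 26.1 CPM in I3A livers (-0.23 ± 0.12, SE). Mrpl9, with a bacterial counterpart and 1 of the promoters printed above, measured 40.0 and 36.2 CPM in HFD and 34.4 and 31.7 CPM in I3A livers (-0.21 ± 0.11, SE). Their groups did not overlap either.

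On the higher side of the large subunit stood Mrpl20, Mrpl17, Mrpl54, Mrpl15 and Mrpl13, all without overlap of the groups. Mrpl20 measured 37.3 and 37.5 CPM in HFD and 42.0 and 45.3 CPM in I3A livers (log2 fold change 0.22 ± 0.10, SE; edgeR adjusted p = 0.424). Mrpl54, found only in mitochondria, measured 21.7 and 21.5 CPM in HFD and 25.6 and 24.7 CPM in I3A livers. The pairs of Mrpl54 lay within 1 CPM of each other, so its value of 0.22 ranged only from 0.21 to 0.24 with single libraries left out. Mrpl17, whose promoter is shown above, was the most counted member, with 69.2 and 67.5 CPM in HFD and 74.5 and 83.2 CPM in I3A livers (0.21). Mrpl15 stood at 0.23, but at 0.082 without I3A 305, where it measured 57.9 CPM beside 43.9 to 47.9 CPM in the other libraries. Mrpl13 measured 32.1 and 36.1 CPM in HFD and 37.9 and 39.6 CPM in I3A livers, and its value was 0.18, from 0.11 without HFD 334 to 0.27 without HFD 335. Mrpl17, Mrpl20, Mrpl15 and Mrpl13 have bacterial counterparts.

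Small-subunit members reached no unadjusted p under 0.05, the nearest being Mrps31. Mrps31 (chromosome 8, 22411361 to 22429665, plus strand), found only in mitochondria, measured 28.0 and 30.0 CPM in HFD and 33.4 and 37.0 CPM in I3A livers. Both I3A libraries lay above both HFD libraries, with a 1.21-fold higher level (log2 fold change 0.28 ± 0.11, SE; unadjusted p = 0.0536, edgeR adjusted p = 0.393). Mrps9, with a bacterial counterpart, measured 17.0 and 17.1 CPM in HFD and 20.9 and 20.1 CPM in I3A livers. Its value of 0.27 ± 0.12 (SE) ranged from 0.25 to 0.29 with single libraries left out. Mrps24 measured 42.9 and 41.5 CPM in HFD and 49.9 and 45.3 CPM in I3A livers (0.17), and Mrps5 35.3 and 30.3 CPM in HFD and 35.1 and 38.4 CPM in I3A livers (0.16). The groups of Mrps24 did not overlap and those of Mrps5 did, and without HFD 335 Mrps5 stood at 0.056.

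Besides Mrps18a, the Mrps genes named on the lower side were Mrps6, Mrps25, Mrps23 and Mrps21. Mrps6, the least abundant tested member by count, measured 5.92 and 5.40 CPM in HFD and 5.08 and 4.30 CPM in I3A livers (-0.27 ± 0.24, SE). Mrps25 measured 11.3 and 10.8 CPM in HFD and 10.4 and 8.95 CPM in I3A livers (-0.19 ± 0.18, SE), and 69.8% of its exonic bases are shared with Nr2c2 on the opposite strand. Their groups did not overlap, yet the standard errors were nearly as large as the differences. Mrps23 (-0.19) and Mrps21 (-0.14) had overlapping groups, and both depended on single libraries. Mrps23 ranged from -0.31 without HFD 335 to -0.037 without HFD 334, and Mrps21 from -0.24 without I3A 303 to -0.028 without I3A 305 (-0.22 without HFD 335).

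The 3 Mrps18 genes are paralogs of 1 bacterial gene whose products occupy different places: Mrps18a in the large subunit, Mrps18b and Mrps18c in the small one. Mrps18a measured 26.9 and 24.4 CPM in HFD and 20.7 and 22.5 CPM in I3A livers (-0.25 ± 0.12, SE; edgeR adjusted p = 0.455). Mrps18b went the other way with 15.3 and 13.8 CPM in HFD and 15.8 and 20.0 CPM in I3A livers (0.30 ± 0.17, SE; edgeR adjusted p = 0.498). Mrps18c measured 9.05 and 9.52 CPM in HFD and 10.3 and 9.64 CPM in I3A livers (0.10 ± 0.17, SE). None of the 3 had overlapping groups. The high value of Mrps18b rested on I3A 305 and was 0.12 without that library.

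Groups overlapped for Mrpl12, Mrpl45 and Mrpl58, each named for a particular role, and for Mrps30 and Mrps36. Mrpl12, which also binds the mitochondrial RNA polymerase, measured 65.1 and 54.8 CPM in HFD and 65.5 and 62.8 CPM in I3A livers (0.10 ± 0.12, SE). HFD 335 was its low library, and without it Mrpl12 stood at -0.022. Mrpl58, a peptidyl-tRNA hydrolase built into the large subunit, stood at 0.038 ± 0.16 (SE), and Mrpl45, which holds the ribosome at the inner membrane, at -0.18 ± 0.17 (SE). HFD 334 was the highest library for both, so Mrpl45 changed sign to 0.063 without HFD 334 and Mrpl58 to -0.13 without HFD 335. Without HFD 335 Mrpl45 stood at -0.37. Mrps30 stood at 0.0058 ± 0.17 (SE), with HFD and I3A means of 12.4 and 12.5 CPM. Mrps36 stood at 0.14 ± 0.25 (SE) and at -0.068 without HFD 335.

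Mrpl53 (chromosome 6, 83109040 to 83109939, plus strand) was the 1 member that failed the filter, with 0 counts in each of the 4 libraries. GENCODE M21, on the same build, gives 88.0% of its exonic bases to Gm42688 as well, a gene on the same strand with 33 counts over the 4 libraries. The sources used here do not give how reads in shared exons were counted, and its part in this 0 was not tested. A count of 0 allows up to 3 counts, which is 0.20 CPM or less in each library and covers counting error only, and it limits the reads assigned to Mrpl53 rather than its expression. Among the members, 33 share exonic bases with another gene, and the share over all genes was not counted. The extent varies: Mrpl58 shares 2 bases, and Mrps34 shares 77.8% of its exonic bases. Mapk8ip3 on the opposite strand covers 63.4% of the exonic bases of Mrps34, and Nme3 on the same strand 37.0%. The 5 pseudogene rows of member genes in the table were not used.

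Levels of different members can be set side by side only per length. Divided by the deposited gene length, the tested members ran from 1.57 CPM per kilobase (Mrps25) to 55.0 CPM per kilobase (Mrpl34), with medians of 12.1 for the large and 6.53 for the small subunit. The highest after Mrpl34 were Mrpl14 (47.5) and Mrpl12 (40.5), and the lowest besides Mrps25 were Mrps30 (1.87) and Mrpl33 (1.92). Mrpl34, with a bacterial counterpart, measured 37.5 and 33.0 CPM in HFD and 28.4 and 34.6 CPM in I3A livers (log2 fold change -0.16), Mrpl14 44.6 and 47.9 CPM in HFD and 45.4 and 42.4 CPM in I3A livers (-0.075). Mrpl33 measured 14.7 and 13.2 CPM in HFD and 15.9 and 12.4 CPM in I3A livers (0.022). Groups overlapped for all 3, and Mrpl34 ranged from -0.32 without I3A 305 to -0.012 without I3A 303 (-0.25 without HFD 335). Deposited lengths equal the summed bases of all annotated exons in GENCODE M21 for 73 members, and 19 members had a length over 2 times that of their principal transcript. With the principal transcript's length, an alternative chosen after the data were seen, the medians were 21.7 and 14.6 CPM per kilobase. The large subunit was above the small one on both scales, but the order of members changed: Mrpl33 went from 1.92 to 29.4 CPM per kilobase (deposited length 7326 bases, principal transcript 478 bases). Mrpl52 became the highest at 105 and Mrps25 stayed the lowest at 1.71.

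**Figure D3:**
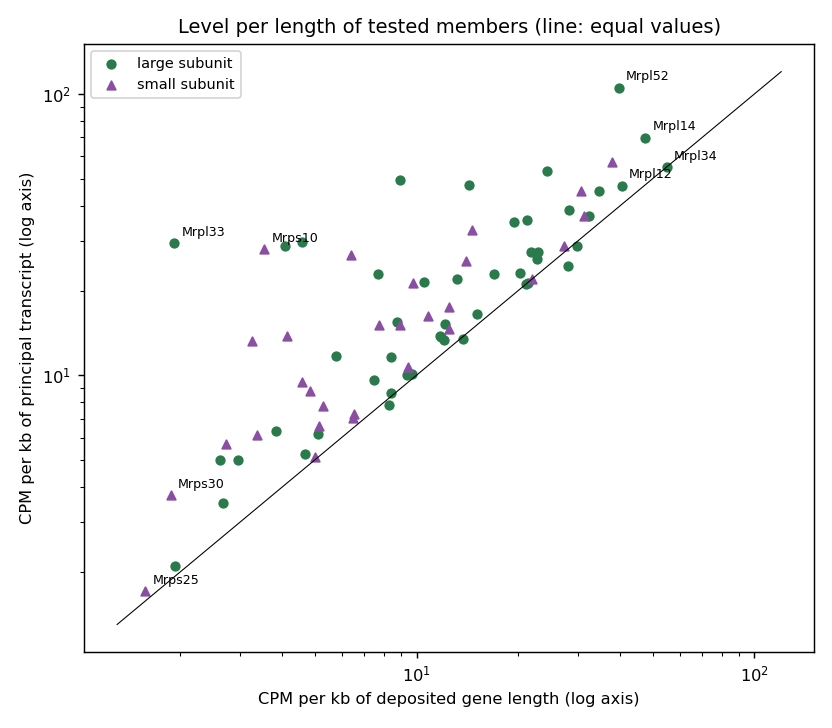
Mean level of each tested member over the 4 libraries in CPM per kilobase, with the deposited gene length on the x axis and the principal transcript's length on the y axis, both log axes. Points far above the line of equal values, such as Mrpl33 and Mrps10, are genes whose deposited length is many times that of the principal transcript.

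In the genome the members lay on 17 chromosomes, with 11 on chromosome 11 and 8 on chromosome 17. A head-to-head neighbour, meaning another protein-coding gene on the opposite strand whose start lies within 1000 bases, was found for 33 of the 78 members (42.3%). The share was 10.8% of all 22046 protein-coding genes and 15.9% of the 12094 with a mean of at least 10 counts a library. In 22 of the 33 the starts were at most 200 bases apart. Several neighbours also serve mitochondria: Ndufs6 beside Mrpl36 and Ndufb5 beside Mrpl47 belong to respiratory complex I, Sars2 beside Mrps12 charges the serine tRNA, and Mrpl46 and Mrps11 stand head to head with each other.

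Fold changes of members and neighbours were set side by side in the 29 cases where the neighbour was tested. Members spanned -0.36 to 0.30 and neighbours -1.04 to 0.47. Every tested member had at least 74 counts in each library, whereas Mtbp (0.47) had 17 to 31 and Lrrc46 (-0.84) had 9 to 29. Mrpl46 and Mrps11 enter both as members and as neighbours. An unadjusted p under 0.05 was found for 2 neighbours (background 12.9%). One was Twnk, the mitochondrial DNA helicase, whose start lies 116 bases from that of Mrpl43 across the stretch printed above. Twnk measured 40.2 and 37.2 CPM in HFD and 28.6 and 27.8 CPM in I3A livers (-0.46 ± 0.11, SE; unadjusted p = 0.00591, edgeR adjusted p = 0.242). Mrpl43 (chromosome 19, 45005014 to 45006442, minus strand) measured 34.5 and 34.0 CPM in HFD and 33.1 and 34.6 CPM in I3A livers (-0.019 ± 0.10, SE; edgeR adjusted p = 0.956). The groups of Twnk were apart and those of Mrpl43 overlapped, though the difference between the genes was not tested. In the deposited coordinates these genes share no bases, whereas GENCODE M21, which places Mrpl43 differently, gives 33.4% of its exonic bases there to Twnk as well.

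The other was Ppp1r10, whose start lies 45 bases from that of Mrps18b. Ppp1r10 had 377 and 697 counts in HFD 334 and 335 and 272 and 258 counts in I3A 303 and 305 (log2 fold change -1.04, edgeR adjusted p = 0.272), opposite in sign to Mrps18b at 0.30. The high count was that of HFD 335, the library with transcripts of other tissues.

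**Figure D4:**
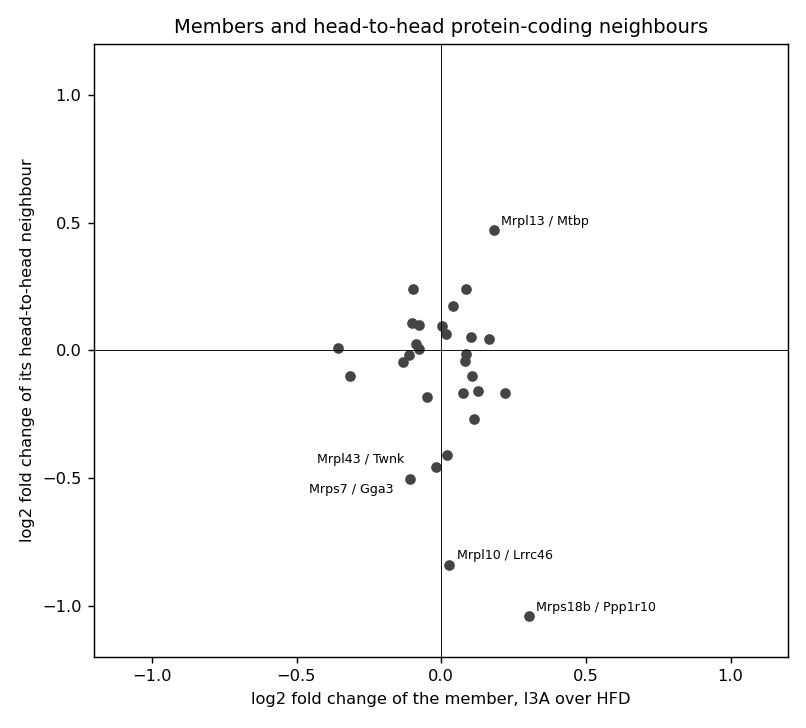
Log2 fold change (I3A over HFD) of 29 members on the x axis and of their head-to-head protein-coding neighbours on the y axis, with labels on the neighbours farthest from 0. Members stay between -0.36 and 0.30 while neighbours reach from -1.04 (Ppp1r10) to 0.47 (Mtbp). Mtbp had only 17 to 31 counts a library, and Ppp1r10 was highest in HFD 335.

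The RNA parts of the mitochondrial ribosome measured lower in I3A livers. mt-Rnr1, the RNA of the small subunit (mitochondrial genome, 70 to 1024, plus strand), measured 338 and 454 CPM in HFD and 197 and 161 CPM in I3A livers. Both I3A libraries were below both HFD libraries, and the level was 2.22-fold lower (log2 fold change -1.15 ± 0.18, SE; unadjusted p = 0.0010, edgeR adjusted p = 0.167). mt-Rnr2, the RNA of the large subunit (mitochondrial genome, 1094 to 2675, plus strand), measured 515 and 675 CPM in HFD and 314 and 365 CPM in I3A livers. It was 1.75-fold lower, again without overlap (-0.81 ± 0.17, SE; unadjusted p = 0.00344, edgeR adjusted p = 0.214). DESeq2, which called 2.95% of the genes it tested, called both (adjusted p = 8.21e-07 and 8.37e-04). So did edgeR without the filter on low counts (adjusted p = 2.39e-04 and 0.00528), which called 232 genes higher and 387 lower out of 24119. With limma-voom, and in edgeR with RLE scaling, library totals or at least 10 counts in every library, 0 genes passed an adjusted p of 0.05. The edgeR fit without HFD 334 gave an adjusted p of 0.0151 and 0.0457, but it sets HFD 335 alone against the I3A pair, which is then the only source of replicate spread.

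HFD 335 was the highest library for both RNAs, and without it they stood at -0.92 and -0.60 (edgeR adjusted p = 0.140 and 0.321). Together they took 0.0874% (HFD 334) and 0.117% (HFD 335) of counts, beside 0.0508% (I3A 303) and 0.0496% (I3A 305). No source used here says how ribosomal RNA was removed or messenger RNA selected, and the part of that step in these values was not tested. The 13 proteins encoded in the same genome took 4.97% and 5.37% in the HFD pair and 5.58% and 5.08% in the I3A pair. Of these 13 genes 2 (15.4%, beside 12.9% of all tested genes) had an unadjusted p under 0.05, both higher in I3A: mt-Nd6 (0.39 ± 0.12, SE) and mt-Atp8 (5 and 9 counts in the HFD pair, 42 and 21 in the I3A pair), a short gene that overlaps mt-Atp6.

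**Figure D5:**
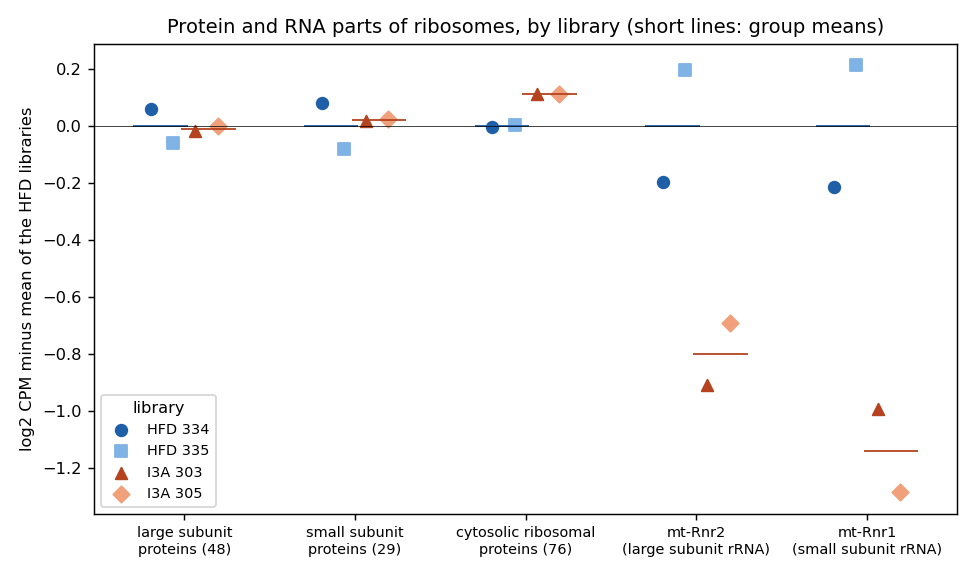
Level in each library minus the mean of the HFD libraries, in log2 CPM, for the means over 48 large-subunit, 29 small-subunit and 76 cytosolic ribosomal protein genes and for the 2 mitochondrial ribosomal RNAs. Protein genes of both mitochondrial subunits lie between -0.081 and 0.081 in every library, while the RNAs in I3A livers lie between -0.69 and -1.29.

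Genes for the ribosome of the cytosol offer the nearest parallel. Of 76 such genes 67 were positive and 9 negative (median 0.095), and their groups did not overlap in 64.5%, with 48 above and 1 below, beside 45.5%, 23.1% and 22.5% of all tested genes. At an unadjusted p under 0.05 stood 9 of them (11.8%, beside 12.9% of all tested genes), all higher. Their mean log2 CPM was 6.95 and 6.96 in HFD and 7.07 and 7.07 in I3A livers, a difference of 0.112 beside gaps of 0.0070 and 0.0018 within the groups. The difference between cytosolic and mitochondrial genes was not tested, and the cytosolic median was 0.0040 when libraries were scaled by their totals alone.

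Other genes of mitochondrial translation were read from lists chosen by role, with 0 members of each past an adjusted p of 0.05 in edgeR. The 5 mitochondrial ribosomal proteins with other symbols had a median of 0.012 and no unadjusted p under 0.05. Among them Chchd1 stood at -0.17 ± 0.13 (SE) and Ptcd3, an RNA-binding protein of the small subunit, at -0.11 ± 0.12 (SE). Of 26 assembly factors 2 were higher and 1 lower at an unadjusted p under 0.05 (median 0.083), which is 11.5% beside 12.9% of all tested genes. Eral1, which chaperones the small-subunit RNA, measured 16.0 and 14.6 CPM in HFD and 11.4 and 10.9 CPM in I3A livers (-0.46 ± 0.15, SE; edgeR adjusted p = 0.332). Trub2, a pseudouridine synthase acting on mitochondrial RNA, measured 10.4 and 10.7 CPM in HFD and 13.5 and 14.8 CPM in I3A livers (0.42 ± 0.15, SE; edgeR adjusted p = 0.361). The groups of both genes were apart.

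Of 15 translation factors 1 was higher and 1 lower at that threshold (median 0.035), 13.3% beside the same 12.9%: Guf1, a GTPase of elongation, stood at 0.40 ± 0.15 (SE) and Mtrf1l, a release factor, at -0.58 ± 0.23 (SE). None of the 20 aminoacyl-tRNA synthetases and their partners had an unadjusted p under 0.05 in edgeR (median -0.049), with Mars2 at -0.55 ± 0.24 (SE) and Iars2 at 0.16 ± 0.10 (SE). Of 11 genes of mitochondrial DNA copying and transcription, Twnk was the lower and Mterf2 the higher one at that threshold, 18.2% beside 12.9% (0.78 ± 0.29, SE, from 2.28 and 2.49 CPM in HFD to 4.31 and 3.89 CPM in I3A livers).

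Among 9 regulators of nuclear genes of mitochondria, 1 was positive and 8 negative (median -0.20), where 48.5% of all tested genes were positive. The groups overlapped in 7 of the 9 and lay apart on the lower side in 1 (background 22.5%). They lay apart in 22.2% of the list, beside 45.5% of all tested genes. An unadjusted p under 0.05 was found for 1 of the 9 (11.1%, beside 12.9%). Myc, named after its values were seen, had the most negative value (-1.40) with 402 counts in HFD 335 and 60 to 101 counts in the other libraries. The positive one was Ppargc1a, the coactivator of mitochondrial biogenesis, with 6.83 and 9.10 CPM in HFD and 16.9 and 16.5 CPM in I3A livers (1.07 ± 0.19, SE; edgeR adjusted p = 0.20). DESeq2 called it (adjusted p = 0.0144), as did edgeR without the filter (adjusted p = 0.00787), whereas limma-voom called 0 genes. Yy1, whose motif was counted above, measured 77.9 and 74.6 CPM in HFD and 65.7 and 67.0 CPM in I3A livers (-0.20 ± 0.091, SE; edgeR adjusted p = 0.426). The members' median of 0.0074 and their span of -0.36 to 0.30 stand beside these values.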

How the data were processed

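Liver RNA extracted with Trizol was made into libraries with a NEBNext Ultra kit, per the labels' protocols. The submitters' processing notes name HISAT2, featureCounts 1.5.0-p3 and GRCm38. Not given in the sources used here are the strand setting, the annotation release and the treatment of reads shared by genes. Values in the deposited table are whole raw counts, beside gene lengths. Libraries were grouped by title, with 2 in each of 2 groups. Comparing the counts of the 2 libraries of a group gave a chi-square of 32.6 (HFD) and 29.8 (I3A) times its degrees of freedom, above sampling noise, so each library counted as 1 replicate.

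The test of the counts, over all genes at once, was that of edgeR 4.0.16 under R 4.3.3 (filterByExpr with a minimum of 10 counts, TMM scaling, quasi-likelihood fit, 2-sided, Benjamini-Hochberg over 13403 genes). SE and 95% intervals of log2 fold changes come from that fit. A prior count of 2 entered log2 CPM. DESeq2 1.42.0, limma-voom (limma 3.58.1), other scalings and filters, protein-coding genes alone and fits without each library were alternatives. The edgeR script was tested on simulated data.

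Members and lists were chosen with earlier results of these data known. Genes named with values are, in each subunit, the 5 with the smallest unadjusted p in each direction, the 3 highest and 3 lowest per length, those failing the filter, 10 fixed members, and 2 genes of each pathway list. Mrpl32, Mrpl52, Mrps26, Mrps27, Mrps10 and the neighbours were named after their values were seen. Positions are those of the table; 73 of the 78 members have the same start, end and strand in GENCODE M21.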

Additional observations from a re-analysis of the deposited data

How the results depend on the processing

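No paired analysis was possible because the library numbers are not shared between the groups. In the fits listed here 0 members passed an adjusted p of 0.05, including DESeq2 and limma-voom. Scaling by library totals shifted the median of all genes from -0.010 to -0.10 and with it the members: the medians became -0.089 (large subunit) and -0.072 (small), and 5 members stood on the lower side at an unadjusted p under 0.05, while over all genes the split of such genes went from 892 higher and 837 lower to 578 and 1329. That number on the lower side was 1 without the filter on low counts and 0 in DESeq2, and protein-coding genes alone gave 1 on the higher side. With single libraries left out it ranged from 0 to 1 on either side, the large-subunit median from -0.040 to 0.084, the small-subunit median from -0.071 to 0.12 and the mean difference of large minus small (-0.029 with all libraries) from -0.053 to -0.0076. Among these fits the medians moved most without HFD 334 (0.084 and 0.12, difference -0.053); the cause was not tested. With subunits taken by structure the difference was -0.040.

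Among 46 single genes under 11 alternatives, 14 of 503 values changed sign, all for members within 0.18 of 0. These were, by library totals, Mrpl33 (-0.064), Mrps30 (-0.088) and Mrpl58 (-0.054); with single libraries left out, the ranges crossed 0 for Mrpl12 (-0.022 to 0.24), Mrpl33 (-0.15 to 0.19), Mrps30 (-0.13 to 0.14), Mrpl43 (-0.054 to 0.030), Mrpl45 (-0.37 to 0.063), Mrpl58 (-0.13 to 0.23) and Mrps36 (-0.068 to 0.39). In 9 values a gene outside the members newly passed: mt-Rnr1, mt-Rnr2 and Ppargc1a as given above, and mt-Nd6 in DESeq2 (adjusted p = 0.0467). With 2 libraries a group, the median SE of a member was 0.125 on the log2 scale, which sets the smallest differences that can be told apart.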
